A study of Mus musculus with 6 samples.

Results

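The genes described here are the interferon regulatory factors of a macrophage line: Irf1, Irf2, Irf3, Irf4, Irf5, Irf7, Irf8 and Irf9, together with Irf2bp2, which encodes a co-repressor that binds IRF2. These 9 genes were taken by symbol from the 52636 genes of the series, and all 9 were among the 11561 genes that passed the filter on low counts. Transcripts were sequenced from RAW264.7 cells, a macrophage line of BALB/c origin, in 6 libraries. The cells of 3 libraries, called C2S, had been kept for 24 h with 150 µg/ml of an extract of that name, and those of the other 3, called PM_control, with 0 µg/ml. Neither abbreviation is explained in the labels, and all 6 libraries come from this one line, kept in the same medium. Nothing in the labels shows whether the replicates came from separate cultures. The p-values therefore rest on library-to-library spread alone, which may be technical.

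Interferon regulatory factors are transcription factors that share an N-terminal DNA-binding domain and bind the interferon-stimulated response element, ISRE. IRF3, IRF5 and IRF7 wait in the cytoplasm and enter the nucleus once kinases below the nucleic acid sensors phosphorylate them, and then switch on interferon and cytokine genes. IRF9 carries the response to secreted interferon, as the DNA-binding part of a complex that also holds STAT2. IRF1 activates and IRF2 antagonises many of the same genes, while IRF8 and IRF4 bind DNA with the factor PU.1 and shape the identity of macrophages, dendritic cells and B cells.

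Total estimated counts lay between 8594485 and 10665869 per library, so that 3 counts, the floor used here, corresponded to 0.281 to 0.349 CPM (counts scaled to a common library size). This floor covers counting error only. More genes had a count with C2S, at 15852 to 16648 per library, than in the controls, at 14638 to 15051. The part of this difference in rises from few or no counts was not tested. The summed TPM, an abundance scaled for transcript length, of 10 macrophage markers was 6943 to 7223 with C2S and 6758 to 7075 in the controls, although Mertk had 1 count in the 6 libraries together. Of the 9 tested macrophage markers, 5 rose and 2 fell, against 27.0% and 28.4% of all tested genes. The 2 that fell were Cd14 (log2 fold change -0.60) and Cebpa (-0.50). Markers of T cells, fibroblasts and epithelial cells summed to at most 0.23 TPM in each library, with Cd3e, Cd8a, Col1a2, Col3a1, Pdgfra, Epcam, Krt8, Cdh1 and Cldn4 at 0. The 5 B cell markers summed to 2.48 to 4.66 TPM with C2S and 0.12 to 0.54 in the controls, with Cd79a and Cd79b giving 41 and 30 counts against 4 and 3, and Ms4a1 at 0 in all libraries. Granulocyte markers summed to 2.49 to 6.18 TPM with C2S and at most 3.7 in the controls, with S100a9 and Elane at 0 in all libraries. Mpo, whose exons overlap another gene, gave 54 counts in the C2S libraries against 0. Dendritic cell markers summed to at most 1.65 TPM.

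With C2S, Irf4, Irf8, Irf7 and Irf9 rose, and Irf3, Irf2, Irf2bp2 and Irf5 fell. Irf1 did not pass the test. Thus 8 of the 9 genes were called at an adjusted p below 0.05 (edgeR's quasi-likelihood test, Benjamini-Hochberg over all tested genes), 4 in each direction. Among all 11561 tested genes, 55.4% were called, 27.0% as higher and 28.4% as lower, so calls were common in this comparison. The same 8 genes had groups that did not overlap, against 61.1% of all tested genes. The higher genes made up 48.8% of all calls, but 38.3% with library sizes alone as the scaling and 35.9% with limma on log2(TPM + 1). The same 3 rises (Irf4, Irf7, Irf8) and 4 falls (Irf2, Irf2bp2, Irf3, Irf5) were called under all 17 alternative settings, and Irf9 was not. In bulk RNA, less RNA per cell and fewer cells that carry a transcript cannot be told apart.

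**Figure D1:**
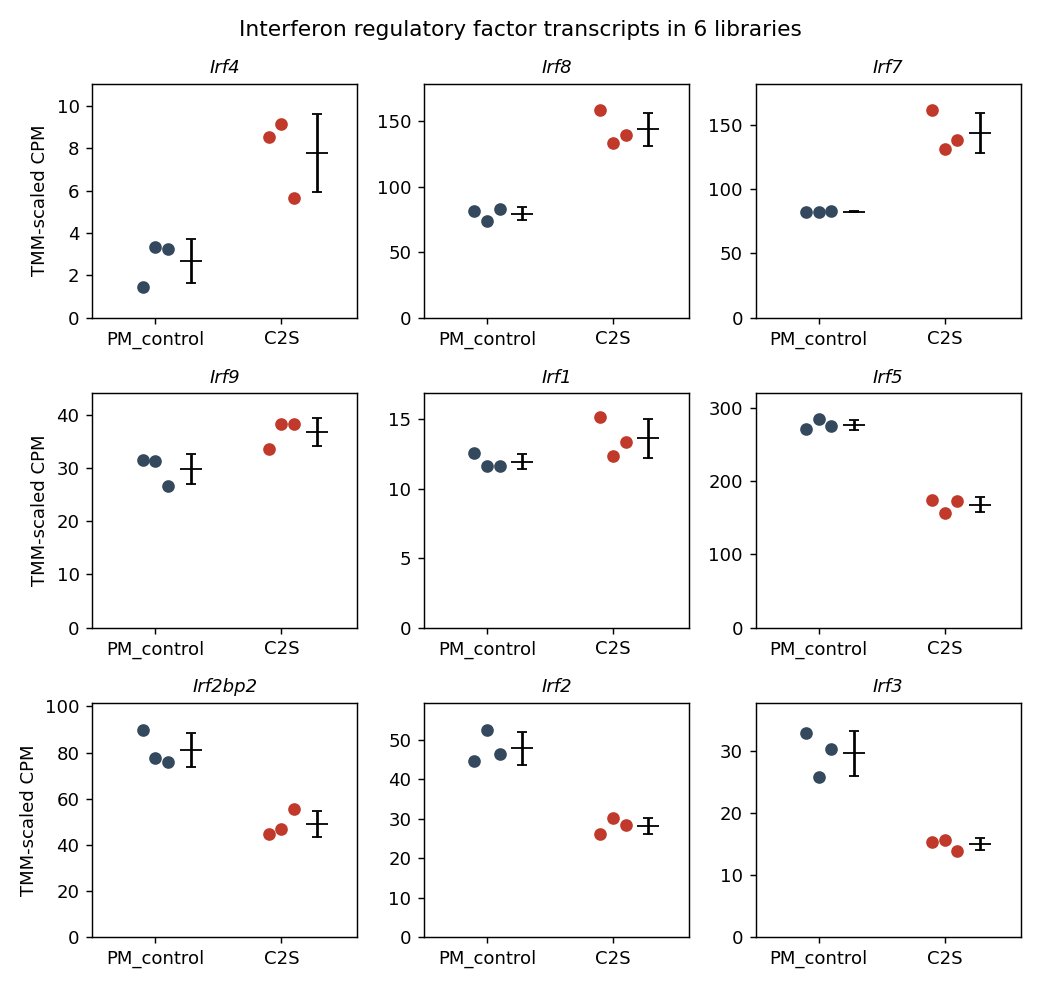
TMM-scaled CPM (y axis, from 0) of the 9 genes in the 3 PM_control and 3 C2S libraries (x axis). Points are libraries and bars the mean with 1 SD. The groups lie apart for all genes but Irf1, where the highest control, 12.6 CPM, is above the lowest C2S library, 12.4 CPM.

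Of the 3 factors activated by phosphorylation, Irf3 and Irf5 fell while Irf7 rose. Irf7 (ENSMUSG00000025498, chromosome 7, 141262706 to 141266481, minus strand), the interferon-inducible factor that amplifies interferon-alpha production, was at 161, 130.8 and 138 CPM (TMM-scaled) in the C2S libraries. It was at 82.2, 82.0 and 82.7 CPM in the controls. The lowest C2S library thus lay well above the closely grouped controls, and the log2 fold change was 0.80 ± 0.08 (SE; edgeR, adjusted p = 1.46e-07), or 1.75-fold. Irf5 (ENSMUSG00000029771, chromosome 6, 29526625 to 29541871, plus strand), which drives inflammatory cytokine genes in macrophages, was at 174, 156 and 173 CPM with C2S. Its controls were at 271, 284 and 274 CPM, all above the C2S libraries, and it was 1.65-fold lower (log2 fold change -0.72 ± 0.06; edgeR, adjusted p = 3.96e-08). Its value is uncertain, because 14.1% of the exon length of Irf5 is shared with Tnpo3 on the other strand and no source states whether reads were counted by strand. The estimated counts of Irf5 were whole numbers in all 6 libraries, and whether reads were shared was not tested. Tnpo3 itself had a log2 fold change of -0.13 ± 0.06 and was not called.

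Irf3 (ENSMUSG00000003184, chromosome 7, 44997648 to 45002848, plus strand) is the constitutively made factor that starts interferon-beta transcription. It was at 15.3, 15.8 and 13.9 CPM with C2S and at 32.9, 25.8 and 30.3 CPM in the controls, with no overlap between the groups. Its log2 fold change of -0.99 ± 0.12 (edgeR, adjusted p = 3.35e-06) was the largest fall among the 9 genes on counts. On length-scaled TPM it was the smallest of the 4 falls, at -0.73 on log2(TPM + 1) (limma, adjusted p = 0.00505), against -0.79 for each of Irf2, Irf2bp2 and Irf5, and it was also the smallest on log2(TPM + 0.1). The 5′ end of Irf3 overlaps Bcl2l12 on the other strand, over 2.56% of its exon length, and Bcl2l12 was not called (log2 fold change -0.36 ± 0.24).

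The partners of PU.1, Irf8 and Irf4, both rose, from very different levels. Irf8 (ENSMUSG00000041515, chromosome 8, 120736358 to 120756694, plus strand), a lineage factor of monocytes and macrophages, was at 158, 134 and 139 CPM with C2S. It was at 81.6, 73.6 and 82.7 CPM in the controls, and all C2S libraries stood above all controls. The log2 fold change was 0.86 ± 0.08 (edgeR, adjusted p = 6.17e-08), or 1.81-fold. Irf4 (ENSMUSG00000021356, chromosome 13, 30749226 to 30766976, plus strand), a factor of alternative macrophage activation and of plasma cells, was at 8.55, 9.14 and 5.66 CPM with C2S. It was at 1.47, 3.34 and 3.25 CPM in the controls, from 16 to 33 counts per library, the fewest of the 9 genes. Its log2 fold change of 1.55 ± 0.29 (edgeR, adjusted p = 0.000263) was the largest rise, 2.92-fold, and also the least precise. The fold was 1.24 on the log2 scale without PM_control replicate 1, the lowest library, and 0.86 on log2(TPM + 1), a scale that understates low genes. PU.1 itself, the product of Spi1, was at 358 ± 34.5 CPM with C2S and 391 ± 8.76 CPM in the controls (SD, n = 3 per group; edgeR, adjusted p = 0.121). Spi1 was called lower without C2S replicate 1 (log2 fold change -0.19; adjusted p = 0.0237), with library sizes alone (-0.21; adjusted p = 0.0121), with the GC trend removed (-0.199; adjusted p = 0.0123) and on log2(TPM + 1) (-0.27; limma, adjusted p = 0.0145). B cells also transcribe Irf4 and Irf8. The B cell markers Cd79a and Cd79b moved with Irf4, while Ms4a1 was at 0, and their part in the result was not tested.

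Irf9 (ENSMUSG00000002325, chromosome 14, 55603571 to 55610030, plus strand), the DNA-binding subunit of the interferon-stimulated complex, had the smallest rise. It was at 33.6, 38.2 and 38.2 CPM with C2S and at 31.5, 31.3 and 26.6 CPM in the controls, so the groups lay apart by a narrow margin. The log2 fold change was 0.30 ± 0.10 (edgeR, adjusted p = 0.0185). The call was lost without C2S replicate 3 (0.27; adjusted p = 0.0626), without PM_control replicate 3 (0.22; adjusted p = 0.091), with library sizes alone (0.21; adjusted p = 0.0801) and on log2(TPM + 1) (0.21; limma, adjusted p = 0.185). Its adjusted p spanned 0.00895 to 0.185 across the 17 alternatives. In TPM the groups overlapped, with 21.8, 25.6 and 25.4 with C2S and 22.4, 21.9 and 18.2 in the controls.

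Of the antagonistic pair, Irf2 fell while no change of Irf1 was detected. Irf2 (ENSMUSG00000031627, chromosome 8, 46739732 to 46847458, plus strand), the antagonist, was at 26.1, 30.2 and 28.5 CPM with C2S and at 44.6, 52.6 and 46.4 CPM in the controls. Every control lay above every C2S library, and the log2 fold change was -0.76 ± 0.10 (edgeR, adjusted p = 4.19e-06). Irf1 (ENSMUSG00000018899, chromosome 11, 53770014 to 53778374, plus strand), an early target of interferon-gamma signalling, was at 15.1, 12.4 and 13.4 CPM with C2S and at 12.6, 11.6 and 11.7 CPM in the controls. The groups overlapped and the log2 fold change was 0.19 (95% interval -0.11 to 0.49; edgeR, adjusted p = 0.268), an interval that leaves room for a rise of the size seen for Irf9. The TPM of Irf1 relative to that of Irf2 was 0.381 to 0.511 with C2S and 0.208 to 0.311 in the controls, ranges that do not overlap.

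Irf2bp2 (ENSMUSG00000051495, chromosome 8, 126588296 to 126593986, minus strand) fell with its DNA-binding partner. It was at 44.8, 46.8 and 55.6 CPM with C2S and at 89.8, 77.6 and 76.1 CPM in the controls, without overlap (log2 fold change -0.73 ± 0.10; edgeR, adjusted p = 5.97e-06). Of 7 tested relatives and DNA-binding partners of the factors, 2 rose and 3 fell, against 27.0% and 28.4% of all tested genes (median log2 fold change -0.54, against -0.00212 over all). Those that fell were both relatives of this co-repressor and Ikzf1, a lymphoid and myeloid partner factor (-0.54). Those that rose were the AP-1 genes Junb (0.75 ± 0.07) and Jund, which overlaps Gm11175 and is uncertain (1.5 ± 0.07). Irf2bp1 went from 83.2 ± 3.04 to 45.1 ± 0.99 CPM (log2 fold change -0.88 ± 0.08; edgeR, adjusted p = 4.75e-08) and Irf2bpl from 171 ± 4.59 to 59.3 ± 2.38 CPM (-1.52 ± 0.07; edgeR, adjusted p = 5.55e-12). Irf2bp2 has 2 exons and both relatives have 1. Of the 543 tested nuclear protein-coding genes with at most 2 exons, 50.8% were lower and 19.3% higher, with a median log2 fold change of -0.50, against 25.7% and 27.3% of the 1814 genes with 8 to 10 exons, the range of the other 8 factors. The part of exon number in the falls of the co-repressor genes was not tested. The value of Irf2bp2 is uncertain too, since Gm26759 on the other strand covers 20.5% of its exon length. Its estimated counts were also whole numbers in all 6 libraries. The sum over the C2S libraries was 59 counts for Gm26759 and 1336 for Irf2bp2, and over the controls 90 and 2471.

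**Figure D2:**
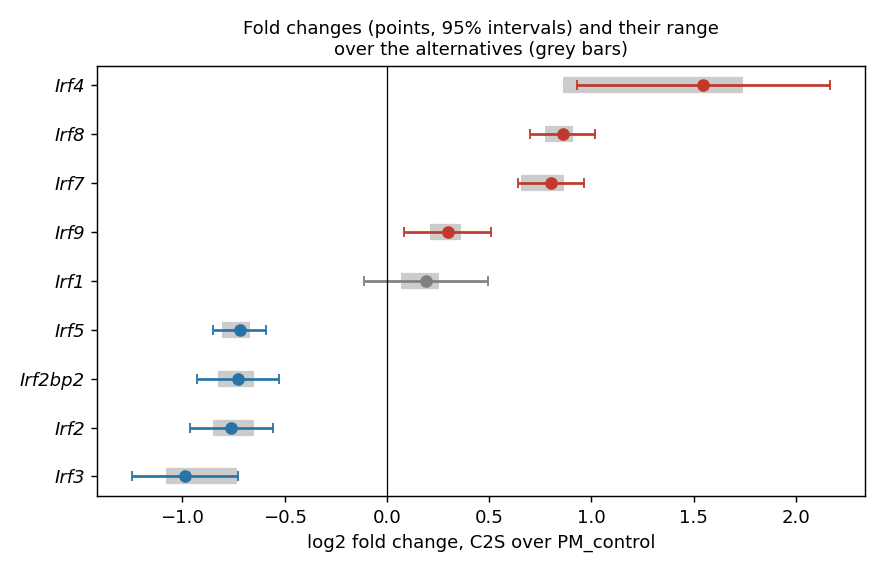
Log2 fold change of each gene, C2S over PM_control (x axis), with its 95% interval from edgeR (point and line, red where called higher, blue where called lower, grey where not called) and the range over 17 alternative settings (grey bar). The estimates run from -0.99 for Irf3 to 1.55 for Irf4, and no bar crosses 0.

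Irf5, Irf7 and Irf8 were the 3 most abundant factors in both groups, in that order of mean TPM, but the lead of Irf5 was smaller with C2S. The exon overlap of Irf5 with Tnpo3 makes its levels, ratios and shares uncertain here too. In TPM, which allows levels of different genes to be compared, Irf5 led the controls at 230.5 ± 4.48 (SD, n = 3), followed by Irf7 at 82.8 ± 3.5 and Irf8 at 50.2 ± 4.94. With C2S, Irf5 at 133 ± 11.8 and Irf7 at 131.4 ± 14.3 TPM had overlapping ranges, and Irf8 followed at 87.6 ± 10.4. The TPM ratio of Irf5 to Irf7 was 2.71 to 2.84 in the controls and 0.974 to 1.07 with C2S. The lower ranks in the controls were Irf2 (43.0), Irf3 (37.4), Irf2bp2 (25.6), Irf9 (20.8), Irf1 (10.1) and Irf4 (0.90), where Irf8 and Irf2, and Irf2 and Irf3, did not differ beyond their ranges. With C2S the order was Irf9 (24.3), Irf2 (24.1), Irf3 (21.9), Irf2bp2 (14.4), Irf1 (10.7) and Irf4 (2.45), with overlapping ranges among Irf9, Irf2 and Irf3. Of the summed TPM of the 8 DNA-binding factors, Irf5 took 48.5% ± 1.5 in the controls and 30.5% ± 0.57 with C2S. Irf7 took 17.4% ± 0.83 and 30.1% ± 1.52, and Irf8 10.6% ± 0.91 and 20.1% ± 1.43. The sum itself was 458 to 496 TPM in the controls and 404 to 466 with C2S, with overlapping ranges.

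**Figure D3:**
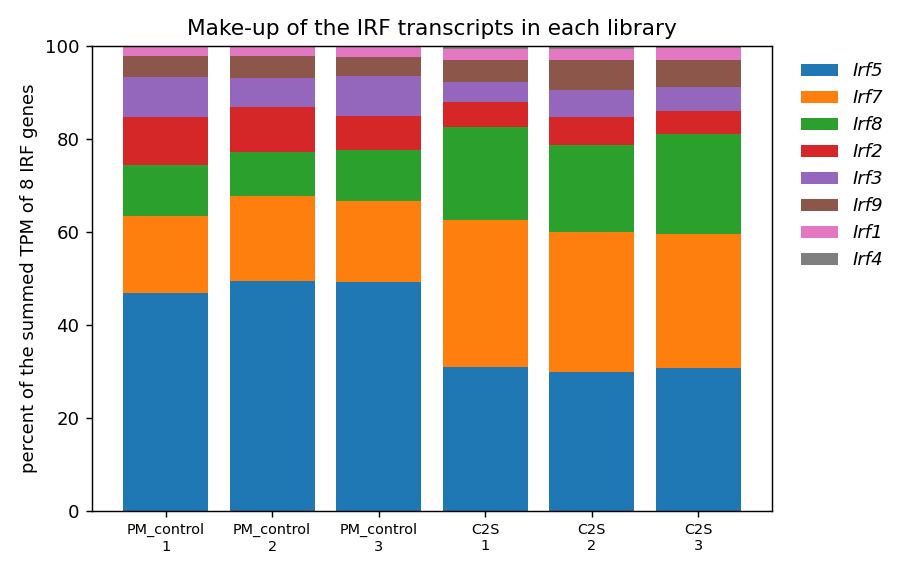
Share of the summed TPM of the 8 interferon regulatory factor genes (y axis, percent) in each of the 6 libraries (x axis), stacked by gene. Irf5 holds 46.8% to 49.5% in the control libraries and 29.8% to 30.9% with C2S, while the bands of Irf7 and Irf8 are wider with C2S. The value of Irf5 is uncertain, as its exons overlap Tnpo3.

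Of the 8 factors with several annotated transcripts, Irf3 was the one whose estimated transcript lengths did not overlap between the groups. The deposited tables give, for each gene and library, a mean transcript length weighted by the estimated abundance of its isoforms. For Irf3 it was 1343, 1213 and 1140 bases with C2S and 1452, 1564 and 1421 bases in the controls, with no overlap. Irf3 has 13 annotated transcripts of 369 to 2031 bases. Among the 9519 tested genes with several transcripts, 15% had lengths that did not overlap between the groups, and 8.37% were shorter in all C2S libraries, so that 1 of 8 factors is close to that background. The other 7 factors with several transcripts had overlapping lengths, which spread most for Irf2, at 1711 to 2077 bases with C2S and 1612 to 2380 in the controls. Irf2bp2 has a single annotated transcript of 5080 bases. These lengths rest on an isoform estimate from short reads, and no test was made on them.

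**Figure D4:**
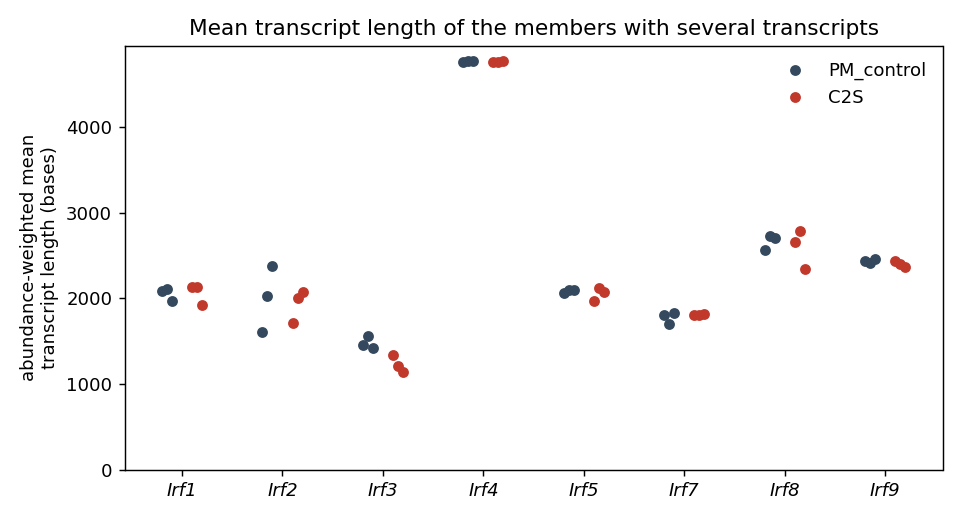
Abundance-weighted mean transcript length (y axis, bases, from 0) of the 8 factors with several annotated transcripts, in 3 PM_control (dark) and 3 C2S (red) libraries each. Irf3 alone among the 8 has groups that lie apart, at 1140 to 1343 bases with C2S and 1421 to 1564 in the controls.

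The sequence just before the annotated start site set Irf4, Irf7 and Irf8 apart from the other 6 genes. RefSeq start sites on GRCm38.p6 gave 12 windows, each from 250 bases before to 50 bases after a start, for the 9 genes. The TATA box letters TATAAA, on the sense strand with the first base 40 to 20 bases before the start, stood at 26 bases in Irf4, 29 in Irf7 and 31 in Irf8. They were not in those places in the windows of Irf1, Irf2, Irf2bp2, Irf3, Irf5 or Irf9, nor at the downstream start of Irf8. They were found in 1.99% of all 32851 windows of this length. This motif was chosen after the sequences had been read, and a match describes letters, not a working site. The bases from 40 to 11 before the upstream start are shown for 8 of the genes, 5′ to 3′ on the gene's strand, with TATAAA in capitals, first for the genes that rose, then for those that fell.
Irf4, chr13:30749193-30749222, plus strand: tccgcctccggctcTATAAAgttcctcttt
Irf8, chr8:120736318-120736347, plus strand: cgccccatcTATAAAagcaggcgcgcgcgt
Irf7, chr7:141266435-141266464, minus strand: gcccgaagtacTATAAAagcactggcaccc
Irf9, chr14:55603945-55603974, plus strand: gggagcacacatcagcctccgggtctgatc
Irf5, chr6:29526585-29526614, plus strand: gatgggtaggggcccggggcgcggggtggt
Irf2bp2, chr8:126593997-126594026, minus strand: ccgcgcaggcgccgtgcagagctgtcgaag
Irf2, chr8:46739705-46739734, plus strand: ggccgggagagggcgggggtgggggggatt
Irf3, chr7:44997608-44997637, plus strand: ttttgcggtcatttgcatatggcgttccca

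Letters of elements known for IRFs, PU.1 or STATs were found in the windows of Irf2, Irf8 and Irf1, and binding was not tested. The motifs searched on both strands were the ISRE (GAAA, any 2 bases, then GAAA, in 3.44% of all windows), the composite element of PU.1 and IRFs, called EICE (GGAA, any 2 bases, then GAAA, 2.72%), the STAT element GAS (TTCNNNGAA, 8.3%), the AP-1 element (TGANTCA, 7.81%) and the cyclic AMP element (TGACGTCA, 1.79%). Irf2 held an EICE that overlaps an ISRE, with first bases 247 and 241 bases before the start, and a GAS at 224. Irf8 held a GAS at 171 and another at 153 bases before the start, and Irf1 held a GAS at 90. No window of the other 6 genes held any of these letters. The stretches are shown 5′ to 3′ on the plus strand of GRCm38.p6, with the matches in capitals, because they are the matches found in this family.
Irf2, chr8:46739495-46739544: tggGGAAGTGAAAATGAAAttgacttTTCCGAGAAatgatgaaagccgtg
Irf8, chr8:120736173-120736227: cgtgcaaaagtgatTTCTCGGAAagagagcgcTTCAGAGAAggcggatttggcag
Irf1, chr11:53769899-53769957: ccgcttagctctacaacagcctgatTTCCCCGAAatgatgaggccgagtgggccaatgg
The 3 genes with a match thus comprised a fall (Irf2), a rise (Irf8) and no call (Irf1). The share of all windows that hold any of the 5 motifs was not computed. Whether matches were more common in this family than elsewhere is therefore not known.

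Upstream of the factors, both the kinases and adaptors and the sensors held genes that rose and genes that fell. The counts of this and the following lists stand beside 27.0% higher and 28.4% lower among all tested genes. Of 20 genes that lead to the phosphorylation of IRF3, IRF5 or IRF7, 10 rose and 6 fell (median log2 fold change 0.20). From here on, levels in CPM are the mean ± SD of 3 libraries, and changes, written with ± or after "by", are log2 fold changes with their SE from edgeR. Unc93b1, which carries the nucleic acid-sensing Toll-like receptors to endosomes, rose from 266 ± 14.4 to 385 ± 2.68 CPM, and Traf6, a ubiquitin ligase that activates IRF5 and IRF7, had a log2 fold change of 0.50 ± 0.09. Tbkbp1, an adaptor of the kinase TBK1, fell from 81.8 ± 5.39 to 34.0 ± 3.69 CPM, and Ticam2, an adaptor of TLR4, fell by 1.19 ± 0.18 on the log2 scale. Ticam2 is uncertain, as it overlaps Tmed7 and its estimated counts with C2S were not whole numbers. Tbk1, the kinase of IRF3, was at 49.3 ± 3.13 CPM against 47.8 ± 4.64 (edgeR, adjusted p = 0.691). Its TPM values lay apart, at 40.8 to 46.9 with C2S and 24.8 to 31.9 in the controls, and its mean transcript length was 1856 to 1896 bases against 2637 to 2861. On log2(TPM + 1) it was higher (0.54; limma, adjusted p = 0.00835). Of 10 tested nucleic acid sensors, 3 rose and 5 fell (median -0.43). Tlr7, a sensor of single-stranded RNA that signals to IRF5 and IRF7, fell by 1.13 ± 0.09 on the log2 scale and Tlr9, the sensor of CpG DNA, by 0.94 ± 0.15, while the RNA helicase gene Ddx58 (0.62 ± 0.08) and the DNA sensor gene Aim2 (0.53 ± 0.09) rose.

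**Figure D5:**
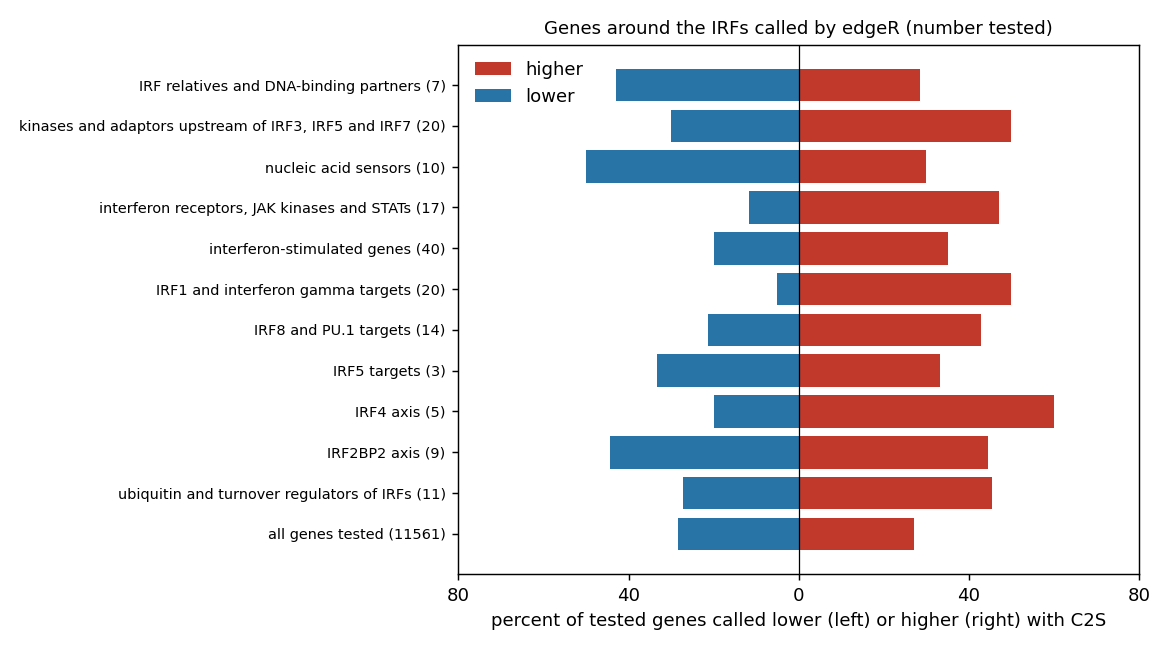
Percent of the tested genes of each list called lower (blue, left) or higher (red, right) with C2S, with the number tested in brackets and all tested genes at the bottom. All tested genes show 28.4% lower and 27.0% higher. The lists of relatives and partners and of nucleic acid sensors have longer bars to the left. The IRF5 and IRF2BP2 lists have equal bars, and the other lists have longer bars to the right.

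Interferon genes themselves were at or near 0. Of 20 genes of type I, II and III interferons, 17 had no count in any library, and Ifna2 and Ifnab had 2 and 1 counts with C2S. Ifnb1, the first target of IRF3, was at 0 counts with C2S and had 3 over the controls. None reached the filter, and the floor of 3 counts bounds the level that a library could have shown. Of 17 tested genes of interferon receptors, JAK kinases, STATs and their feedback, 8 rose and 2 fell (median 0.12). Stat2, the partner of IRF9, rose from 27.4 ± 3.56 to 64.2 ± 1.22 CPM (edgeR, adjusted p = 1.26e-08). Stat3, which carries cytokine signals, rose by 1.44 ± 0.06 on the log2 scale. Ifngr2, a chain of the interferon-gamma receptor, was at 36.5, 40.5 and 36.5 CPM with C2S and at 111, 101 and 112 CPM in the controls, a log2 fold change of -1.52 ± 0.08. The phosphatase gene Ptpn6 had a log2 fold change of -0.33 ± 0.06. Ifnar1, a chain of the type I receptor, was at 73.2 ± 5.11 against 74.7 ± 3.24 CPM (edgeR, adjusted p = 0.753).

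Genes that the factors are known to control moved in both directions. Of 40 tested interferon-stimulated genes, 14 rose, 8 fell and 18 were not called (median 0.29), a share of calls close to the 55.4% among all tested genes. Trim25, which activates the RNA sensor RIG-I, rose by 0.67 ± 0.06 on the log2 scale and Oas3, an antiviral oligoadenylate synthetase, by 0.54 ± 0.07, while Samd9l (-1.54 ± 0.17) and Dtx3l (-0.61 ± 0.08) fell. Of 20 tested targets of IRF1 or interferon-gamma, 10 rose and 1 fell (median 0.31). Tap1, a peptide transporter of antigen presentation, rose by 0.69 ± 0.08 on the log2 scale, and Socs1, a feedback inhibitor of JAK kinases, rose from 0.75 ± 0.11 to 6.65 ± 1.73 CPM. The gene that fell was Irgm1, an interferon-induced GTPase (-1.30 ± 0.13). Of 14 tested targets of IRF8 and PU.1, 6 rose and 3 fell (median -0.02). Klf4, a transcription factor of monocytes, rose by 1.17 ± 0.10 on the log2 scale and Blnk, a signalling adaptor, by 0.64 ± 0.09, while the receptor gene Cd180 fell by 2.09 ± 0.08.

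Fewer genes could be tested for the other factors. Of 8 cytokine genes activated by IRF5, 3 passed the filter: the chemokine gene Ccl3 rose (1.24 ± 0.12), Ccl4 fell (-0.48 ± 0.15) and Tnf was not called (edgeR, adjusted p = 0.0811). Il12a and Il12b were at 0 in all libraries. The other untested genes had few counts: Il23a 21 over the C2S libraries and 1 over the controls, Il6 7 and 0, and Il1b 3 and 0. Each C2S library also had more genes with a count than any control, so such small gains may not be particular to these genes. Of 11 genes around IRF4 in alternative activation, 5 passed the filter, 3 rose and 1 fell. Kdm6b, a histone demethylase that acts on the Irf4 locus, rose from 20.5 ± 2.46 to 120 ± 7.35 CPM, and Il4ra, the interleukin-4 receptor, had a log2 fold change of -1.06 ± 0.22, a call lost on TPM. Csf2rb, a cytokine receptor gene, rose by 1.29 ± 0.08 but is uncertain, since its estimated counts were not whole numbers. RSEM can give such counts when it shares reads between genes, and which other gene was involved was not examined. Arg1, Chil3, Retnla, Prdm1 and Ccl17 had no count in any library. Of 9 tested genes linked to IRF2BP2, 4 rose and 4 fell, one of the latter being Irf2 itself. The nuclear factor genes Nfatc1 (-2.19 ± 0.08) and Nfatc2 (-1.52 ± 0.08) fell, and the growth factor gene Vegfa (6.07 ± 0.16) and the cell cycle inhibitor gene Cdkn1a (0.94 ± 0.06) rose. Of 11 genes that modify or degrade IRF proteins, 5 rose and 3 fell. Fbxw7, a substrate adaptor of a ubiquitin ligase, rose by 0.92 ± 0.09 on the log2 scale, Otud1, a deubiquitinase, had a log2 fold change of -1.08 ± 0.31, and Trim21, a ubiquitin ligase of several IRFs, one of -1.0 ± 0.35. Trim21 lost its call on TPM and without C2S replicate 3, PM_control replicate 2 or PM_control replicate 3.

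The genes with the patterns nearest to those of Irf4 and Irf3, the largest rise and the largest fall on counts (on TPM Irf3 was the smallest of the 4 falls), were sought among 9120 other genes whose mean level reached 5 CPM. Likeness was the root mean square difference of centred log2 CPM over the 6 libraries. Nearest to Irf4 were Glcci1 (0.19), Ralgps1 (0.25) and Dirc2 (0.26), and nearest to Irf3 were Ammecr1 (0.06), Lca5 (0.07) and Rsbn1 (0.08). These are descriptions of 6 libraries in 2 groups. The nearest tested genes on the chromosome were also read from the fit. Around Irf7, which rose, Phrf1, which overlaps it, had a log2 fold change of -0.33 ± 0.07. Rassf7, 44047 bases to the left, had one of -1.09 ± 0.305, and Deaf1, 30698 bases to the right, one of -0.36 ± 0.12. All were called lower. Around Irf9, Rnf31, which overlaps its 5′ end, was lower (-0.33 ± 0.10) and Ipo4, 15369 bases to the right, was higher (0.32 ± 0.06). Scaf1, 99 bases to the right of Irf3, was lower (-0.35 ± 0.07), as Irf3 was. Prmt1, to the left of Irf3, and Psme2, to the left of Irf9, were not called. Among the neighbours of the other genes some were called and some were not, where 55.4% of all tested genes were called, 28.4% as lower. The neighbours named here were picked after the values had been seen.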

How the data were processed

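RNA-seq of 6 RAW264.7 libraries was analysed, 3 per group, from 1 table per library. Per the submitters' processing notes and the series text, the authors trimmed reads with fastp, aligned them to mm10 with STAR and quantified genes with RSEM. Their versions, the annotation and any strand setting were not given in the labels. The authors deposited expected counts, which RSEM estimates by sharing reads between genes, so near-identical genes are uncertain. The deposited TPM were used to compare levels between genes, the deposited mean transcript lengths are in bases, and the deposited FPKM were not used.

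Expected counts were rounded and tested with edgeR 4.0.16 in R 4.3.3 (TMM scaling, quasi-likelihood test, filterByExpr with a minimum count of 10 and a total of 15), with Benjamini-Hochberg adjustment over all tested genes and a threshold of 0.05. SDs are over 3 libraries, and 95% intervals come from edgeR's moderated fit. The tested genes held 99.85% of counts, and the common biological coefficient of variation was 7.52%. The test was first tried on simulated counts. No 2 libraries were alike within counting error. Alternatives were DESeq2 1.42.0, limma 3.58.1 (voom, or log2(TPM + 1) or log2(TPM + 0.1), for genes with a mean of at least 1 TPM), other scalings and filters, unrounded counts, a GC correction, a replicate block and leaving out each library. Exon overlaps came from GENCODE M21 on GRCm38, and a gene was called uncertain above 10% overlap. Promoter sequences came from RefSeq.

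The 9 genes and the lists were chosen with earlier results of these data known. All 9 are described. From each list, up to 2 genes per direction with the smallest adjusted p are named, if called and with groups that lie apart, plus Stat2, Ifnb1, Tbk1, Spi1 and Ifnar1. Some items that these rules choose are not reported here. For the largest rise and fall on counts, the 3 genes of nearest pattern are named. Other genes in the text were named after their values were seen.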

Additional observations from a re-analysis of the deposited data

How the results depend on the processing

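Over 17 alternatives, 8 of the 9 genes kept their direction and their side of the threshold. Irf9 kept its direction in all 17 and its call in 12, with log2 fold changes of 0.21 to 0.36. With limma on log2(TPM + 0.1) it was 0.22 (adjusted p = 0.184). The counts of all genes called lower stayed within 1.5 times of the value reported. The count of genes called higher, 3123, was 1717 with limma on log2(TPM + 1) and 1705 on log2(TPM + 0.1), and the cause was not tested. Leaving out 1 library gave 2797 to 3086 higher and 2936 to 3163 lower genes. The median log2 fold change of all tested genes, -0.00212 as reported, was -0.0894 with library sizes alone, -0.101 on log2(TPM + 0.1) and 0.105 without the filter on low counts. Of 816 comparisons of 48 other named genes with an alternative, 802 kept the call, 7 lost one, 7 gained one and 0 reversed.

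Samples of the same number did not deviate together (correlations over genes of -0.011, 0.069 and 0.034), so the numbers are not taken as pairs. With the replicate block, 3192 genes were higher and 3297 lower, and 4 of the 9 factors were higher and 4 lower. Low counts limit Irf4, and genes at 0 could lie anywhere below 3 counts per library.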

Other observations

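The TATAAA letters seen before the starts of Irf4, Irf7 and Irf8 were counted in all tested genes with a RefSeq window, at the same place. They stood in 101 of 8722 such genes (1.16%). Among genes called higher with C2S they stood in 50 of 2368 (2.11%), among those called lower in 26 of 2579 (1.01%), and among those not called in 25 of 3775 (0.662%). Of genes higher by at least 1.5-fold, 32 of 1012 (3.16%) held them, against 15 of 1303 (1.15%) of those lower by at least 1.5-fold. Irf4, Irf7 and Irf8 are themselves among the 101, the 50 and the 32, so these shares are not independent of the 3 genes that prompted the count. The count was made after the 3 genes had been seen, no test was made, and genes are not replicates.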
